A study of Mus musculus with 11 samples.

Results

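The 7 mouse genes described here encode the receptors through which myeloid progenitors sense the colony-stimulating factors and the early progenitor cytokines: Csf3r, Csf1r, Csf2ra, Csf2rb, Csf2rb2, Kit and Flt3. They were chosen by name, each matched to 1 Ensembl gene identifier among the 51912 genes of the count table, and all 7 passed the filter on low counts that left 15703 genes for testing. RNA was sequenced from 11 libraries of C57BL/6 mouse bone marrow that had been spinoculated with retrovirus, sorted as lineage-negative cells positive for GFP and RFP, and cultured without added cytokine for 48 h with 500 nM 4-hydroxytamoxifen. The comparison asked how the order in which a CSF3R mutation and a CEBPA mutation reach the cell bears on its transcripts.

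Each cell carried a constitutive vector and a vector that is switched on by Cre recombinase once 4-hydroxytamoxifen is given. The marrow came from Rosa26 ERT2-Cre mice aged 6 to 12 weeks. CSF3R-only (n = 4) held constitutive CSF3R T618I, an activating receptor mutation, and an empty inducible vector. CSF3R-first (n = 3) held the same constitutive CSF3R T618I with inducible CEBPA V314VW, a change in the C-terminal part of the transcription factor C/EBPα. CEBPA-first (n = 4) held constitutive CEBPA V314VW with inducible CSF3R T618I. All groups therefore carried a CSF3R T618I vector, the Cre line and the 4-hydroxytamoxifen treatment, and there was no group without a mutant vector. The labels do not say that replicates came from separate animals, so p-values measure the spread between these libraries. In bulk RNA, fewer cells of a type and less RNA per cell cannot be told apart.

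Colony-stimulating factor receptors belong to structurally separate families. The G-CSF receptor (Csf3r) and the GM-CSF receptor are cytokine receptors with no kinase of their own and signal through JAK kinases and STAT factors. The GM-CSF receptor pairs a ligand-specific alpha chain (Csf2ra) with a common beta chain (Csf2rb) that is shared with the IL-3 and IL-5 receptors, and the mouse has an additional beta chain (Csf2rb2) that is specific for IL-3. The M-CSF receptor (Csf1r), the stem cell factor receptor (Kit) and the FLT3 receptor (Flt3) are class III receptor tyrosine kinases. Along myeloid differentiation Kit and Flt3 mark early progenitors, Csf3r is high on neutrophils and their precursors, and Csf1r is the defining receptor of monocytes and macrophages.

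The receptors did not move as a block. Levels are given as CPM, the reads of a gene scaled to the normalised total of its library. In CEBPA-first cells the transcripts of Csf3r, Csf1r and Csf2ra were 5.51-fold, 5.05-fold and 2.96-fold lower than in CSF3R-only cells, the beta chains Csf2rb2 and Csf2rb were 1.96-fold and 1.45-fold lower, and the progenitor receptor Flt3 was 2.82-fold higher. A gene was called when its adjusted p in edgeR's quasi-likelihood test was below 0.05 and its fold change was at least 2-fold, a log2 fold change of 1. By this rule 3 receptors were lower (Csf3r, Csf1r, Csf2ra) and 1 was higher (Flt3), where 19.0% of all tested genes were lower and 8.07% were higher. By the adjusted p alone 5 receptors were lower and 2 were higher, against a background of 36.6% and 35.4% of genes. With so many genes past the adjusted p, the size of the changes separates these receptors more than the count does.

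CSF3R-first cells were shifted the same way by smaller amounts. Against CSF3R-only 0 receptors passed the 2-fold rule in edgeR and 0 in DESeq2, and 6 had an unadjusted p below 0.05 in edgeR. The rule called 4.53% of all genes lower and 2.13% higher. By the adjusted p alone 5 receptors were lower and Flt3 was higher, beside 21.1% and 21.6% of genes, and Kit did not pass. Between CEBPA-first and CSF3R-first cells the 2-fold rule called Csf3r and Csf1r lower, where it called 10.3% of genes lower and 2.57% higher. By the adjusted p alone 4 receptors were lower and 1 was higher, with 24.3% and 24.0% of genes, and Csf2rb and Kit did not pass. The median log2 fold change of the 7 receptors was -0.97, -0.57 and -0.41 in the 3 comparisons, and that of all tested genes was -0.0045, -0.022 and 0.0005. The comparisons share libraries, so their values for a receptor are not independent of one another.

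**Figure D1:**
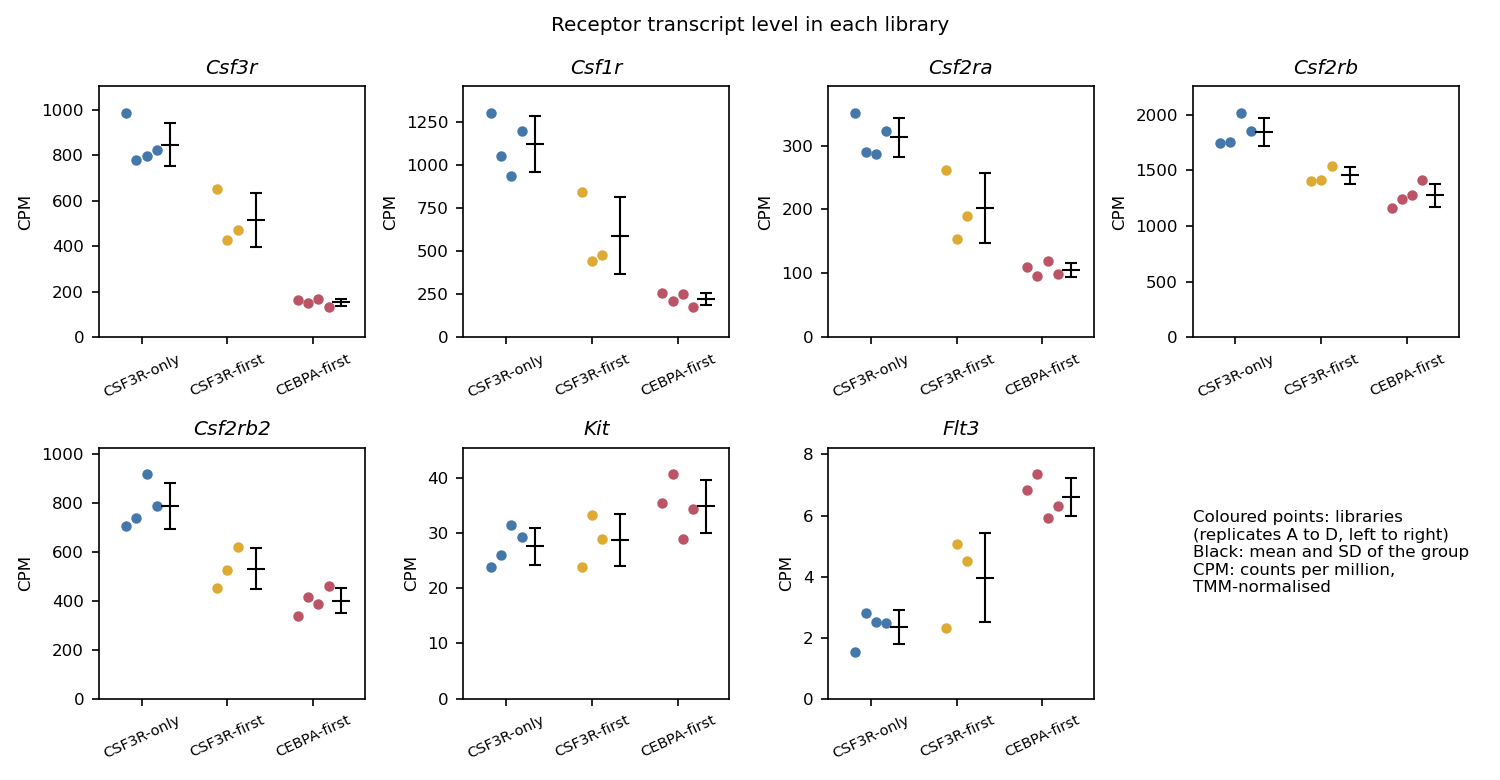
Normalised read count (CPM, TMM-scaled, linear axis from 0) of each receptor gene in each of the 11 libraries, with coloured points for libraries and black marks for the group mean and SD. Csf3r falls from 779 to 986 CPM in CSF3R-only libraries to 131 to 167 CPM in CEBPA-first libraries, Csf2rb is at 1161 CPM or more in all, and Flt3 lies between 5.91 and 7.35 CPM in CEBPA-first libraries only.

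Csf3r (ENSMUSG00000028859, chr4:126024550-126044440, plus strand, GRCm38 throughout) encodes the receptor that drives neutrophil production. Its level was 986, 779, 795 and 825 CPM in CSF3R-only libraries A to D, 650, 427 and 471 CPM in CSF3R-first A to C, and 163, 152, 167 and 131 CPM in CEBPA-first A to D. The 3 groups did not overlap, and CSF3R-first A was the nearest of its group to the CSF3R-only libraries. Of all tested genes, 68.7% did not overlap between CEBPA-first and CSF3R-only. The share was 42.1% between CSF3R-first and CSF3R-only and 52.2% between CEBPA-first and CSF3R-first. These shares are the background for each receptor described below. The group means were 846 ± 94.8 CPM (SD, n = 4), 516 ± 118 CPM (SD, n = 3) and 153 ± 16.1 CPM (SD, n = 4). The log2 fold change was -2.46 ± 0.134 (SE) for CEBPA-first against CSF3R-only, with an adjusted p of 8.2e-09. It was -0.71 ± 0.139 for CSF3R-first against CSF3R-only (adjusted p = 0.0017). It was -1.75 ± 0.138 for CEBPA-first against CSF3R-first (adjusted p = 1.4e-06), so the step between the orders of mutation was itself past the 2-fold rule. The vectors carried a CSF3R coding sequence in all 3 groups, but it was constitutive in CSF3R-only and CSF3R-first and inducible in CEBPA-first. Reads from the vectors were not separated from those of the mouse gene. Their part in the Csf3r counts, and in the differences between the groups, was not tested.

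Csf1r (ENSMUSG00000024621, chr18:61100598-61132149, plus strand), the receptor for M-CSF and IL-34, fell almost as far. CSF3R-only libraries A to D gave 1306, 1056, 939 and 1200 CPM, CSF3R-first A to C gave 847, 444 and 476 CPM, and CEBPA-first A to D gave 255, 211, 250 and 176 CPM. No groups overlapped, but CSF3R-first A, at 847 CPM, stood nearer to the lowest CSF3R-only library than to CSF3R-first B or C. Means were 1125 ± 161 CPM (SD, n = 4), 589 ± 224 CPM (SD, n = 3) and 223 ± 37.2 CPM (SD, n = 4). CEBPA-first differed from CSF3R-only by a log2 fold change of -2.34 ± 0.200 (adjusted p = 3.8e-07) and from CSF3R-first by -1.40 ± 0.205 (adjusted p = 0.00018). CSF3R-first differed from CSF3R-only by -0.93 ± 0.210 (adjusted p = 0.0038), short of the 2-fold rule. Without CSF3R-first A this last value was -1.29, and without CSF3R-only C it was -1.01, both past the rule. The exons of the antisense gene Hmgxb3 lie over 15.1% of the Csf1r exon bases and the strand setting of the counting is not given in the sources used here. Hmgxb3 itself moved in the opposite direction, with a log2 fold change of 0.55 ± 0.0825 for CEBPA-first against CSF3R-only (adjusted p = 5e-05).

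Csf2ra (ENSMUSG00000059326, chr19:61223957-61228429, minus strand), the alpha chain that gives the GM-CSF receptor its ligand, behaved like Csf3r and Csf1r at a lower level. It was at 351, 290, 288 and 323 CPM in CSF3R-only A to D, at 262, 154 and 190 CPM in CSF3R-first A to C, and at 109, 95.4, 120 and 98.8 CPM in CEBPA-first A to D. Again the groups did not overlap and CSF3R-first A was the highest of its group. The means were 313 ± 30.3 CPM (SD, n = 4), 202 ± 55.3 CPM (SD, n = 3) and 106 ± 11.1 CPM (SD, n = 4). The log2 fold change was -1.56 ± 0.140 for CEBPA-first against CSF3R-only (adjusted p = 5.6e-07), -0.63 ± 0.15 for CSF3R-first against CSF3R-only (adjusted p = 0.0052) and -0.93 ± 0.147 for CEBPA-first against CSF3R-first (adjusted p = 0.00032). The last of these passed the 2-fold rule without CSF3R-first B, at -1.09.

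The beta chains lie side by side on chromosome 15 and changed least among the receptors that fell. Csf2rb (ENSMUSG00000071713, chr15:78325752-78353847, plus strand) was at 1750, 1759, 2018 and 1853 CPM in CSF3R-only A to D, 1410, 1419 and 1543 CPM in CSF3R-first A to C, and 1161, 1247, 1282 and 1415 CPM in CEBPA-first A to D. Every CSF3R-only library was above every other library, while CEBPA-first D overlapped the CSF3R-first range. The means were 1845 ± 124 CPM (SD, n = 4), 1457 ± 74.4 CPM (SD, n = 3) and 1276 ± 105 CPM (SD, n = 4). Its log2 fold change was -0.53 ± 0.0781 for CEBPA-first (adjusted p = 4e-05) and -0.34 ± 0.0847 for CSF3R-first (adjusted p = 0.0066), both against CSF3R-only. CEBPA-first and CSF3R-first were not separated by the test (log2 fold change -0.19 ± 0.0839, adjusted p = 0.076).

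Csf2rb2 (ENSMUSG00000071714, chr15:78282507-78305721, minus strand), the IL-3-specific beta chain, was at 706, 740, 917 and 788 CPM in CSF3R-only A to D. CSF3R-first A to C gave 451, 525 and 619 CPM and CEBPA-first A to D gave 339, 415, 389 and 462 CPM. The CSF3R-only libraries stood above all others, and CEBPA-first D, at 462 CPM, was above CSF3R-first A. With means of 788 ± 92.3 CPM (SD, n = 4), 532 ± 84.0 CPM (SD, n = 3) and 401 ± 51.1 CPM (SD, n = 4), the log2 fold change was -0.97 ± 0.118 for CEBPA-first against CSF3R-only (adjusted p = 7.6e-06), just short of the 2-fold rule. It passed the rule when CSF3R-only A, CSF3R-only B or CEBPA-first D was left out, at -1.03, -1.01 and -1.05. CSF3R-first differed from CSF3R-only by -0.57 ± 0.128 (adjusted p = 0.0039), and CEBPA-first from CSF3R-first by -0.41 ± 0.126 (adjusted p = 0.018). The latter missed the adjusted p without CEBPA-first A (-0.33, adjusted p = 0.053) or CSF3R-first C (-0.29, adjusted p = 0.098). The beta chains share sequence: of the 100-base windows of the longest transcript, 6.96% in Csf2rb and 7.20% in Csf2rb2 occur word for word in the other gene, so a small part of their reads could be assigned to either. With the counts of both genes summed, the log2 fold change was -0.65 for CEBPA-first and -0.40 for CSF3R-first against CSF3R-only.

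Kit (ENSMUSG00000005672, chr5:75574916-75656722, plus strand), the stem cell factor receptor of stem cells, early progenitors and mast cells, changed little. CSF3R-only A to D gave 23.9, 26.0, 31.4 and 29.2 CPM, CSF3R-first A to C gave 23.8, 33.2 and 29.0 CPM, and CEBPA-first A to D gave 35.5, 40.6, 28.9 and 34.3 CPM. All 3 groups overlapped, with CEBPA-first C inside the range of the others. The means were 27.6 ± 3.33 CPM (SD, n = 4), 28.7 ± 4.68 CPM (SD, n = 3) and 34.8 ± 4.81 CPM (SD, n = 4). The log2 fold change of 0.33 ± 0.122 for CEBPA-first against CSF3R-only had an adjusted p of 0.025, and in the 11 fits that each left out 1 library it stayed positive and passed in 7. It missed without CSF3R-only A (0.27), CSF3R-only B (0.30), CEBPA-first A (0.33) or CEBPA-first B (0.25), with adjusted p up to 0.090. CSF3R-first against CSF3R-only gave 0.05 ± 0.133 (adjusted p = 0.77) and CEBPA-first against CSF3R-first gave 0.28 ± 0.133 (adjusted p = 0.098), a value that moved between 0.17 and 0.40 when 1 library was left out and passed the adjusted p in 2 of 11 such fits, without CSF3R-first B or CEBPA-first C. Kit is also expressed by mast cells, and the 10 mast cell and basophil markers summed to 1968 to 2884 CPM in CSF3R-only libraries, against 1227 to 1457 for CSF3R-first and 1237 to 1607 for CEBPA-first. Their part in the Kit level was not tested.

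Flt3 (ENSMUSG00000042817, chr5:147330741-147400489, minus strand), the receptor of multipotent and lymphoid-primed progenitors and of dendritic cell precursors, was the member that rose beyond 2-fold. Its level was 1.53, 2.82, 2.50 and 2.49 CPM in CSF3R-only A to D, 2.31, 5.07 and 4.50 CPM in CSF3R-first A to C, and 6.83, 7.35, 5.91 and 6.32 CPM in CEBPA-first A to D. Every CEBPA-first library was above all others, whereas CSF3R-first A lay within the CSF3R-only range. The values rest on 71 to 157 reads per CSF3R-only library, 114 to 285 per CSF3R-first library and 308 to 495 per CEBPA-first library. The means were 2.33 ± 0.557 CPM (SD, n = 4), 3.96 ± 1.46 CPM (SD, n = 3) and 6.6 ± 0.622 CPM (SD, n = 4). CEBPA-first exceeded CSF3R-only by a log2 fold change of 1.5 ± 0.227 (adjusted p = 5.4e-05) and CSF3R-first by 0.73 ± 0.240 (adjusted p = 0.023). The difference between the orders missed the adjusted p without CSF3R-first A (0.47, adjusted p = 0.062) or CEBPA-first B (0.68, adjusted p = 0.060). CSF3R-first exceeded CSF3R-only by 0.76 ± 0.244 (adjusted p = 0.024), short of the 2-fold rule. This value passed the adjusted p in 8 of the 11 fits that left out 1 library, missing it without CSF3R-only A (0.61, adjusted p = 0.060), CSF3R-first B (0.55, adjusted p = 0.129) or CSF3R-first C (0.68, adjusted p = 0.081), and it was 1.03 without CSF3R-first A.

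**Figure D2:**
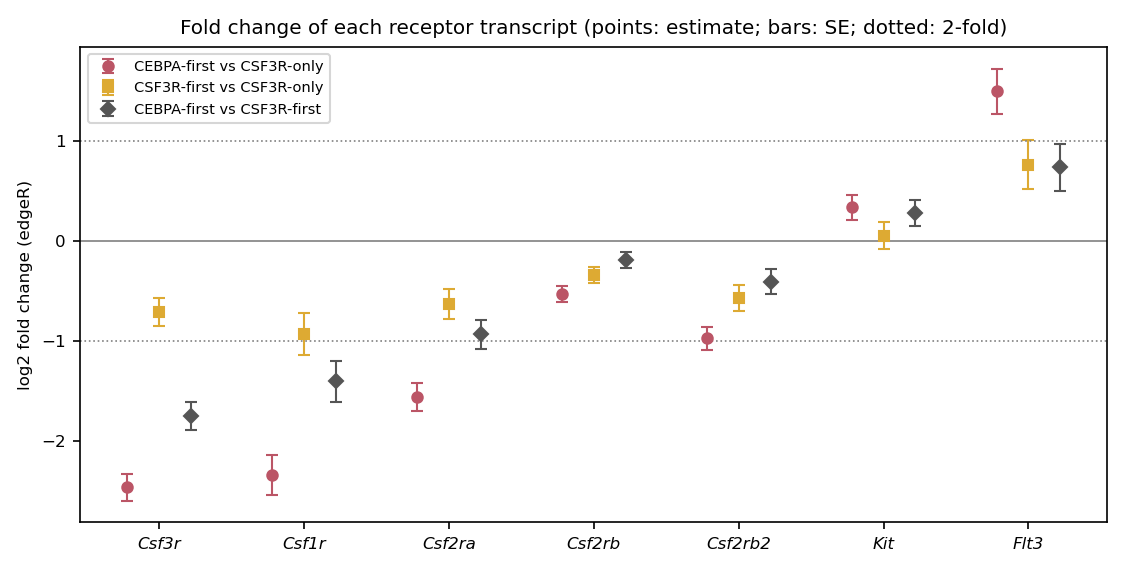
edgeR log2 fold change (vertical axis) of the 7 receptors in the 3 comparisons, with bars for the SE, a solid line at 0 and dotted lines at 2-fold. Csf3r and Csf1r pass the lower dotted line in both comparisons of CEBPA-first, at -2.46 and -2.34 against CSF3R-only and at -1.75 and -1.40 against CSF3R-first, and Flt3 passes the upper line against CSF3R-only alone, at 1.5.

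Division by the length of the merged exons allowed the receptors to be ranked against one another. On this scale, CPM per kilobase, Csf2rb was the highest receptor in all 3 groups, at 254 ± 17.1 (SD, n = 4) in CSF3R-only, 200 ± 10.2 (SD, n = 3) in CSF3R-first and 175 ± 14.5 (SD, n = 4) in CEBPA-first. Kit and Flt3 were the lowest in each group, with Kit at 3.10 to 3.91 and Flt3 at 0.378 to 1.07 as group means. The order changed between these ends.

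In CSF3R-only libraries Csf2rb was followed by Csf3r at 234 ± 26.3, Csf1r at 195 ± 27.9, Csf2rb2 at 166 ± 19.5 and Csf2ra at 109 ± 10.5 CPM per kilobase. The ranges of Csf2rb and Csf3r overlapped, as did those of Csf3r and Csf1r and those of Csf1r and Csf2rb2. Compared within each library, Csf3r was above Csf1r in 4 of 4, whereas Csf2rb was above Csf3r, and Csf1r above Csf2rb2, in 3 of 4. In CEBPA-first libraries Csf2rb2 came next to Csf2rb at 84.6 ± 10.8, and Csf3r (42.5 ± 4.45), Csf1r (38.6 ± 6.44) and Csf2ra (36.9 ± 3.86) followed with overlapping ranges, Csf3r being above Csf1r in 4 of 4 libraries and Csf1r above Csf2ra in 3 of 4. The CSF3R-first order was Csf2rb, Csf3r (143 ± 32.7), Csf2rb2 (112 ± 17.7), Csf1r (102 ± 38.8) and Csf2ra (70.4 ± 19.2), and here only Csf2rb stood clear of its neighbour's range among the 5. The order of the receptors between Csf2rb and Kit depends on the length used. With the longest annotated transcript in place of the merged exons, an alternative chosen after seeing the data, Csf2rb stayed the highest, at 377, 297 and 260 CPM per kilobase in the 3 groups, and Kit and Flt3 the lowest. Csf1r was then close to Csf3r in CSF3R-only, at 239 against 243, with Csf3r higher in 2 of 4 libraries, and its mean was above that of Csf2rb2 in CSF3R-first, at 125 against 112, with Csf1r higher in 1 of 3 libraries. In CEBPA-first Csf3r, at 44.1, then came below Csf1r at 47.4 and Csf2ra at 46.5, again with overlapping ranges.

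In the receptor pool the shares of Csf2rb, Csf3r, Csf1r, Kit and Flt3 did not overlap between CSF3R-only and CEBPA-first libraries. The 7 receptors summed to 901 to 1014 CPM per kilobase in CSF3R-only libraries, against 559 to 710 in the CSF3R-first group and 364 to 398 in the CEBPA-first group. Of that sum Csf2rb held 26.4 ± 2.16% (SD, n = 4), 32.0 ± 4.13% (SD, n = 3) and 45.7 ± 2.18% (SD, n = 4). Csf3r held 24.3 ± 1.77%, 22.5 ± 2.51% and 11.1 ± 1.41%, and Csf1r held 20.2 ± 2.32%, 15.9 ± 4.16% and 10.1 ± 1.93%. The share of Csf2ra was 11.3 ± 0.674%, 11 ± 1.68% and 9.64 ± 1.05%, and that of Csf2rb2 was 17.3 ± 2.25%, 18.0 ± 4.03% and 22.1 ± 2.19%, both with overlapping ranges. By the longest transcript the shares of Csf2ra, 10.8 to 12.6% in CSF3R-only and 8.46 to 10.4% in CEBPA-first, no longer overlapped. Kit and Flt3 together stayed a small part, with Kit at 0.323 ± 0.0432% in CSF3R-only and 1.02 ± 0.166% in CEBPA-first and Flt3 at 0.0397 ± 0.0110% and 0.280 ± 0.0354%.

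**Figure D3:**
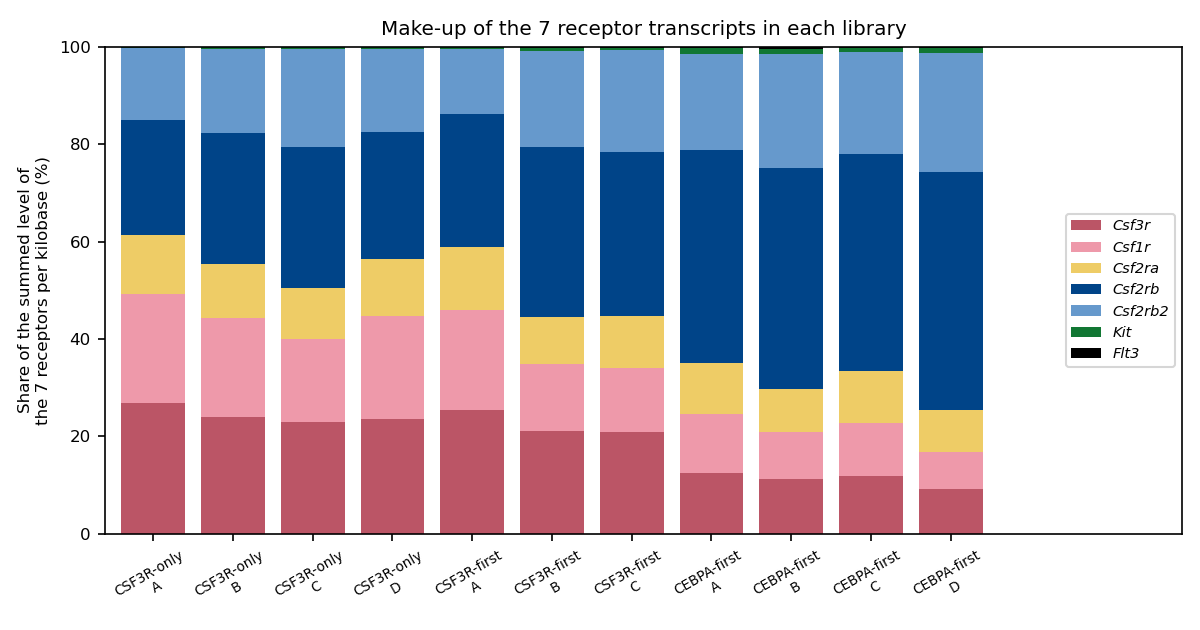
Share of the summed CPM per kilobase of the 7 receptors (percent, stacked to 100) in each library, with libraries on the horizontal axis in order of group. The common beta chain Csf2rb holds 23.7 to 29.0% in CSF3R-only and 43.9 to 48.9% in CEBPA-first libraries, and Csf3r holds 23.0 to 26.9% and 9.15 to 12.4%.

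Ratios within a library compare receptor chains with one another without any scaling between libraries. The log2 ratio of Csf2ra to Csf2rb per kilobase was -0.98, -1.26, -1.47 and -1.18 in CSF3R-only A to D, -1.08, -1.86 and -1.68 in CSF3R-first A to C, and -2.06, -2.37, -2.08 and -2.50 in CEBPA-first A to D. CEBPA-first libraries therefore held the fewest alpha chain transcripts per common beta chain transcript. Their mean differed from CSF3R-only by -1.03 and from CSF3R-first by -0.71, each with a two-sided exact permutation p of 0.0286, the smallest this design can give, and an adjusted p of 0.0429 over 6 such tests. CSF3R-first differed from CSF3R-only by -0.32 (exact permutation p = 0.229, adjusted p = 0.229), a value that was -0.55 without CSF3R-first A and -0.16 without CSF3R-first B.

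The log2 ratio of Csf2rb2 to Csf2rb was -0.69, -0.63, -0.52 and -0.62 in CSF3R-only A to D, -1.02, -0.82 and -0.70 in CSF3R-first A to C, and -1.16, -0.97, -1.10 and -0.998 in CEBPA-first A to D. The mean ratio differed from CSF3R-only by -0.44 in CEBPA-first and by -0.23 in CSF3R-first (exact permutation p = 0.0286, adjusted p = 0.0429 for each). Without CSF3R-first A the difference in CSF3R-first was -0.14 (exact permutation p = 0.067), where 2 libraries against 4 can give no smaller p. CEBPA-first and CSF3R-first differed by -0.21 (exact permutation p = 0.114, adjusted p = 0.137), and by -0.14 without CSF3R-first C.

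CSF3R-first libraries were placed between the outer groups for each receptor on a log2 CPM scale on which 0 is the CSF3R-only mean and 1 is the CEBPA-first mean. Csf3r lay at 0.297 ± 0.129 (SD, n = 3), Csf1r at 0.421 ± 0.218 and Csf2ra at 0.422 ± 0.248. Csf2rb was at 0.637 ± 0.136 and Csf2rb2 at 0.587 ± 0.234. Flt3 was at 0.470 ± 0.398, and Kit, whose outer groups overlap, at 0.148 ± 0.722. Differences between these positions were not tested.

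The replicates of CSF3R-first did not keep one order. Replicate A was at 0.152 for Csf3r, 0.170 for Csf1r, 0.159 for Csf2ra and 0.0143 for Flt3, nearest to CSF3R-only in each. For the beta chains the same library was the nearest to CEBPA-first, at 0.724 for Csf2rb and 0.817 for Csf2rb2. Replicate C was at 0.340, 0.525 and 0.456 for Csf3r, Csf1r and Csf2ra and at 0.480 and 0.349 for Csf2rb and Csf2rb2. The same library also had the highest sum of neutrophil markers in its group, 25531 CPM in A against 14657 in B and 17666 in C, and the highest sum of monocyte and macrophage markers, 1928 CPM in A against 1164 in B and 1275 in C. Their part in the receptor levels of replicate A was not tested.

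**Figure D4:**
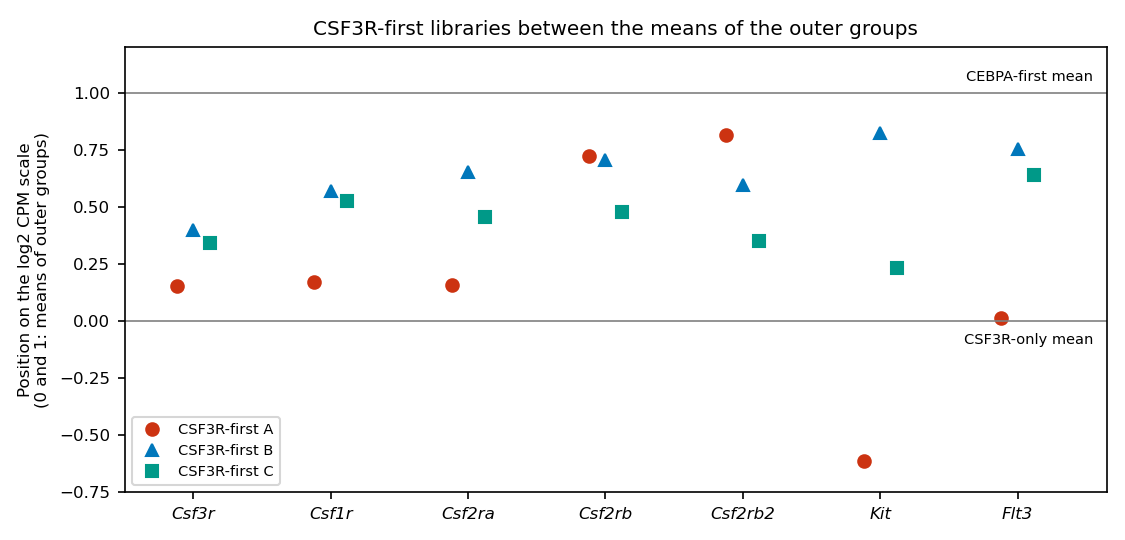
Position of CSF3R-first replicates A, B and C for each receptor on the log2 CPM scale, where the grey lines at 0 and 1 are the means of CSF3R-only and CEBPA-first. Replicate A is the lowest of its group for Csf3r, Csf1r, Csf2ra, Kit and Flt3, from -0.613 to 0.170, and the highest for Csf2rb (0.724) and Csf2rb2 (0.817).

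The receptors also varied together in part over the 11 libraries, which is given as a description because the libraries share groups and depth. Pearson's r of log2 CPM was 0.985 between Csf3r and Csf1r, 0.993 between Csf1r and Csf2ra and 0.987 between Csf2rb and Csf2rb2. With the group means taken out, r was still 0.953 for Csf3r with Csf1r, 0.911 for Csf1r with Csf2ra and 0.909 for Csf2rb with Csf2rb2. Between Csf3r, Csf1r or Csf2ra and either beta chain, r was 0.808 to 0.853 over all libraries and between -0.806 (Csf1r with Csf2rb2) and -0.251 (Csf2ra with Csf2rb) within groups. Kit and Flt3 followed each other within groups (0.759) and ran against Csf3r, with -0.696 for Kit and -0.863 for Flt3.

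The genes with the most similar pattern were named by the 3 highest values of r over the 11 libraries. For Csf3r they were Gm14548 (0.999), Ebi3 (0.998) and Relb (0.998), for Csf1r Sirt2, Birc3 and Sirpa (0.999 each) and for Csf2ra Gnai2 (0.998), Ypel3 (0.997) and Capns1 (0.997). Csf2rb was most like Ppp1r9b (0.988), then Csf2rb2 (0.987) and Inafm1 (0.980), and Csf2rb2 was most like Csf2rb, then Gm35147 (0.985) and Itga2b (0.982). Flt3 was most like Pitrm1 (0.992), E2f6 (0.992) and Jrk (0.991), and Kit had the loosest neighbours, Lancl2 (0.958), Tmem81 (0.941) and Gclc (0.922).

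The promoters of the receptors were searched for the letters of motifs of myeloid factors, since Csf3r, Csf1r and Csf2ra fell together and PU.1 and C/EBP factors are known to act on such promoters. The search used RefSeq promoter windows (GRCm38.p6) of 5 of the 7 genes. Csf1r was left out of the search and no window was used for Csf2rb, so neither promoter is described. In each window the 250 bases before the start were read on both strands. GAGGAA, a core of the PU.1 motif, or its reverse complement TTCCTC, was present in 4 of the 5, and in 23.3% of all promoters of that length. Flt3 was the one without it. The stretches of 30 bases that hold it are printed 5′ to 3′ on the strand of the gene, with the PU.1 letters in capitals, and the whole Flt3 window is given as the window that lacks them. They lie at chr4:126024561-126024590 (plus strand, Csf3r), chr19:61228419-61228448 (minus strand, Csf2ra), chr15:78305871-78305900 (minus strand, Csf2rb2), chr5:75574752-75574781 (plus strand, Kit) and chr5:147400490-147400739 (minus strand, Flt3).
Csf3r: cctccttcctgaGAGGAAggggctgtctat
Csf2ra: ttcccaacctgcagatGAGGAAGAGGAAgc
Csf2rb2: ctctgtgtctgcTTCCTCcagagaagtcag
Kit: ggagagtgctagGAGGAAgaggatccaggg
Flt3: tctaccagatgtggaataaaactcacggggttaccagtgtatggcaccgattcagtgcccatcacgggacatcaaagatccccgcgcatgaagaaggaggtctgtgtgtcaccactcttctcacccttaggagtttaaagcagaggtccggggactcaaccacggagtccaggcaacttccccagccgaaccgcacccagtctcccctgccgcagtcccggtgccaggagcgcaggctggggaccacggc

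In Csf2ra the PU.1 letters occur in direct succession and begin 14 and 8 bases before the RefSeq start. They begin 86 bases before it in Csf3r, 167 in Csf2rb2 and 223 in Kit. RefSeq and GENCODE place some starts differently. In Csf3r the letters begin 23 bases past the first base of the gene span given above, which is GENCODE's, and in Csf2ra the second match begins 3 bases past it, so these lie within that span. In Kit and Csf2rb2 they lie before it, by 152 and 167 bases. The letters TTGCNNAA of a C/EBP motif, present in 9.56% of all promoters, were in none of the 5 windows. TTCNNNGAA, a STAT motif found in 7.02% of promoters, occurred in Csf2rb2 alone. The RUNX motif TGTGGT was in none of the 5 windows. Neither AGATAA, which factors of the GATA family bind, nor the MYB motif AACGG was found in them. A match describes letters only, and the absence of a match says only that these letters are not in the window.

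The ligands of the receptors were mostly low. Csf2, Csf3, Il3 and Il5, which encode GM-CSF, G-CSF, IL-3 and IL-5, had at most 3 reads in any library. Csf1, which encodes M-CSF, was the one abundant ligand and fell with its receptor Csf1r. It was at 340 ± 39.3 CPM in CSF3R-only (SD, n = 4), 212 ± 21.9 in CSF3R-first (SD, n = 3) and 62.7 ± 6.33 in CEBPA-first (SD, n = 4). Its log2 fold change in CEBPA-first cells was -2.44 ± 0.103 against CSF3R-only (adjusted p = 1.1e-09) and -1.76 ± 0.106 against CSF3R-first (adjusted p = 1.8e-07). Of the 4 ligands tested, 2 were called lower in CEBPA-first against CSF3R-only, namely Csf1 and the second ligand of Csf1r, Il34, whose level was at most 0.685 CPM in any library, where the rule called 19.0% of all genes lower and 8.07% higher. The FLT3 ligand gene Flt3l ran in the opposite order to Flt3, with 5.05 ± 0.261 CPM in CSF3R-only libraries, 3.75 ± 0.514 in CSF3R-first libraries and 2.85 ± 0.140 in CEBPA-first libraries.

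Among 16 other tested cytokine and class III receptors, 5 were called lower and 2 higher in CEBPA-first against CSF3R-only, and 9 and 3 passed the adjusted p alone, beside 19.0% and 8.07% of all genes called and 36.6% and 35.4% past the adjusted p. The median log2 fold change of this list was -0.59. Those called lower included Il7r of lymphoid cells (-2.42 ± 0.124), Il10ra (-1.67 ± 0.153) and Ifngr1 (-1.17 ± 0.12). Those called higher were Pdgfrb, a class III kinase like Kit and Flt3 (1.60 ± 0.110), and Il6st, the signal chain of the IL-6 family (1.52 ± 0.0801). Il3ra, the alpha chain that pairs with Csf2rb for IL-3, had 17.0 ± 2.31 CPM in CSF3R-only libraries, 13.4 ± 1.69 in CSF3R-first libraries and 12.2 ± 1.14 in CEBPA-first libraries, with a log2 fold change of -0.48 ± 0.112 between the first and the last (adjusted p = 0.0017). In CSF3R-first against CSF3R-only, 7 receptors of this list were lower and 3 higher by the adjusted p alone, beside 21.1% and 21.6% of all genes.

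Of the 26 adaptors, kinases, proteases and other regulators of these receptors, 10 were called lower and 1 higher in CEBPA-first against CSF3R-only, and 22 and 2 passed the adjusted p alone, against the same 19.0%, 8.07%, 36.6% and 35.4% of all genes. The median log2 fold change was -0.63. The genes that fell included the SRC-family kinase Fgr (-2.72 ± 0.177), the receptor-turnover adaptor Sla2 (-2.47 ± 0.264) and Socs3, the feedback inhibitor of G-CSF signalling (-1.41 ± 0.110). Socs3 took the order of Csf3r, with 617 ± 36.9 CPM in CSF3R-only libraries, 414 ± 70.6 in CSF3R-first libraries and 232 ± 28.5 in CEBPA-first libraries. The one gene called higher was Elane (1.27 ± 0.0950), a granule protease known to cleave the G-CSF receptor and its ligand, and Elane was also in the list of neutrophil precursor markers. CSF3R-first against CSF3R-only gave 2 lower calls, among them Sla2 (-1.22 ± 0.274), where 4.53% of all genes were called lower and 2.13% higher, with 20 lower and 1 higher past the adjusted p alone beside 21.1% and 21.6% of all genes.

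Among 15 transcription factors known to act on these receptor genes, 4 were called lower and 2 higher in CEBPA-first against CSF3R-only, and 7 and 6 passed the adjusted p alone. Over all tested genes these shares were 19.0% and 8.07%, and 36.6% and 35.4%. The falls were in Cebpb (-1.69 ± 0.156), Meis1 (-1.55 ± 0.138), Fosl2 (-1.44 ± 0.135) and Cebpe (-1.07 ± 0.126), and the rises in Myb (1.62 ± 0.114) and Lmo2 (1.08 ± 0.0758). Spi1, which encodes PU.1, had 664 ± 40.1 CPM in CSF3R-only libraries, 503 ± 92.6 in CSF3R-first libraries and 341 ± 14.7 in CEBPA-first libraries, a log2 fold change of -0.96 ± 0.0953 between the first and the last (adjusted p = 1.3e-06) and just short of the 2-fold rule. Irf8, a factor of monocytes and dendritic cells, was at 68.1 ± 6.62 and 69.9 ± 4.72 CPM in CSF3R-only and CEBPA-first, with a log2 fold change of 0.04 ± 0.0857 (adjusted p = 0.72). Cebpa (0.93 ± 0.0699), Hoxa9 (0.95 ± 0.155) and Gfi1 (0.91 ± 0.0639) rose in CEBPA-first against CSF3R-only, also short of the 2-fold rule. The part of reads from the CEBPA vectors in the Cebpa counts was not tested. Spi1, Irf8, Cebpa, Hoxa9 and Gfi1, like Il3ra, Flt3l and Il34, were picked out after their values were seen.

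The cells were sorted as lineage-negative before the culture, yet markers of mature myeloid cells were abundant after it. In CEBPA-first against CSF3R-only cells most of these markers fell, as did Csf3r, Csf1r and Csf2ra, while Flt3 rose and Kit changed little. The 12 neutrophil markers summed to 26869 to 32986 CPM in CSF3R-only libraries, against 14657 to 25531 for CSF3R-first and 6480 to 8638 for CEBPA-first, and 11 of the 12 were called lower in CEBPA-first against CSF3R-only, where 19.0% of all genes were lower and 8.07% higher, the shares that hold for each marker list. The 9 monocyte and macrophage markers other than Csf1r summed to 1961 to 2393, 1164 to 1928 and 724 to 1009 CPM, with 8 of 9 called lower. The 5 neutrophil precursor markers summed to 2859 to 3498, 4775 to 5554 and 6298 to 6755 CPM, with 3 of 5 called higher and all 5 past the adjusted p alone. The part of these cell types in the levels of Csf3r, Csf1r and Csf2ra was not tested.

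Markers of the cells that bear Flt3 and Kit did not move in one direction. Of 7 tested dendritic cell markers other than Flt3, 6 were called lower in CEBPA-first against CSF3R-only, and their list summed to 326 to 437 CPM in CSF3R-only libraries, against 167 to 296 for CSF3R-first and 92.2 to 150 for CEBPA-first, while Siglech had at most 3 reads in any library. Of 8 stem and progenitor markers other than Kit and Flt3, 5 were called lower and 2 higher. The list summed to 499 to 703, 336 to 390 and 238 to 263 CPM, of which Ly6a alone had means of 401, 209 and 63.2 CPM, while Hlf and Mecom were the genes called higher. Of 9 mast cell and basophil markers tested, 5 were lower and 1 higher. Megakaryocyte markers fell in 6 of 6, erythroid markers in 6 of 7 and eosinophil markers in 3 of 4. The B cell genes Pax5 and Ebf1 and the T and NK cell genes Cd3e, Cd8a and Ncr1 had at most 3 reads in any library, with 1 of 2 other B cell markers tested lower and 1 of 2 other T and NK cell markers lower and 1 higher.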

How the data were processed

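RNA from 11 libraries (total RNA, SMARTer low-input kit) was analysed from the raw read counts per gene that the authors deposited. Per the study's methods and the submitters' processing notes, reads were trimmed with Trimmomatic and aligned with STAR to mm10, and the counting tool, annotation release and strand setting are not given in the sources used here. Libraries held 47905747 to 72268346 counts, so 1 count equals 0.0128 to 0.0216 CPM. Replicates differed by more than sampling noise (chi-square per degree of freedom 9.50 to 104). Of 51912 Ensembl identifiers, 51719 matched a symbol in GENCODE M21 (GRCm38), which also gave coordinates and exon lengths.

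Counts were filtered with filterByExpr and TMM-normalised (factors 0.936 to 1.08), and all 3 groups were fitted together with the quasi-likelihood test of edgeR 4.0.16 (R 4.3.3), with Benjamini-Hochberg adjustment over 15703 genes. Log2 fold changes are given with their standard errors. Log ratios of chains (0.5 count added) were compared by exact permutation. The fit was tested on simulated counts. Named genes are the receptors, the 3 genes most like each, and up to 4 called genes per pathway list and direction whose mean log2 CPM reached 3. The receptors and lists were chosen with earlier results of these data known. Alternatives were DESeq2 1.42.0, other normalisations, filters, thresholds, designs and leaving out each library. Some genes of the lists are not reported here.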

Additional observations from a re-analysis of the deposited data

How the results depend on the processing

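The number of receptors called was the same with DESeq2, RLE, upper-quartile or no composition factors, without the filter on low counts, and with the compared groups alone, and no fold change past the 2-fold rule reversed. By the adjusted p alone 7 receptors passed in CEBPA-first against CSF3R-only, 6 in CSF3R-first against CSF3R-only and 5 in CEBPA-first against CSF3R-first. A test against the 2-fold line itself (glmTreat) called 1 receptor in CEBPA-first against CSF3R-first, Csf3r, with an adjusted p of 0.145 for Csf1r. Leaving out 1 library gave 0 to 2 calls in CSF3R-first against CSF3R-only. It moved the log2 ratio of Csf2rb2 to Csf2rb there between -0.31 and -0.14, and that of Csf2ra to Csf2rb in CEBPA-first against CSF3R-first between -0.87 and -0.48, and with fewer libraries the exact permutation test could no longer reach the threshold. With the replicate letter as a block (replicate block), 1 receptor, Csf1r, was called in CSF3R-first against CSF3R-only (log2 fold change -1.02), where the count of all genes called went from 334 higher and 711 lower to 402 and 816. Libraries with the same letter correlated from -0.107 to 0.362 in their deviations from the group means, so the letters were not taken as pairs. Without composition factors the median log2 fold change of all genes in CEBPA-first against CSF3R-only moved to 0.129, and calls went from 1268 higher and 2976 lower to 1754 and 2610. Csf2rb in CSF3R-first against CSF3R-only (adjusted p = 0.051) and Csf2rb2 in CEBPA-first against CSF3R-first (adjusted p = 0.059) then missed the adjusted p of 0.05. With at least 10 counts required in every library Csf2rb2 passed the 2-fold rule, at -1.01. Flt3, with 71 to 495 reads, had the largest standard error of the log2 fold change among the receptors in each comparison. Spearman's rho could not pick the most similar genes, since for Csf3r, Csf1r, Csf2ra and Flt3 the 3 highest values tied at 1.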
